A study of Mus musculus with 8 samples.

Results

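The 10 genes described here are used as markers of mesothelium and simple epithelium, and were followed in mouse fibroblasts that carried a STAT5 mutant: Msln, Krt7, Krt8, Krt18, Krt19, Upk1b, Upk3b, Wt1, Lrrn4 and Slurp1. They were found as the probe sets whose platform annotation gave exactly 1 gene symbol from this set, which selected 16 probe sets for all 10 genes, of 18193 genes and 45037 probe sets in all. Of the 10 genes 7 have 1 probe set, Msln, Slurp1, Krt19, Krt7 and Wt1 among them, so no second probe set checks their levels. The set was put together with the levels of these genes in the 2 mutants already known, so the levels in EA and YF cells are given as a description, without a test, and only the hormone changes were tested.

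The samples were 8 Affymetrix arrays of mouse embryonic fibroblasts of strain C57BL/6, all Stat5-null, into which a mutant STAT5 had been brought by a retrovirus. EA cells carried a change labelled EE to AA in what the labels call the binding domain, and YF cells carried Y694F, at the tyrosine that is phosphorylated when STAT5 is activated. The groups were EA with growth hormone for 120 minutes, EA without stimulation, YF with growth hormone for 120 minutes and YF without stimulation, with 2 arrays each, described by the submitters as biological duplicates. No cells with wild-type STAT5 or without a construct are among the arrays analysed here. The labels do not say whether the carrying cells were a pool or a clone, so the mutant and the cell population that carries it cannot be told apart.

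Mesothelium is the flat epithelium that lines the body cavities and covers the organs in them. It is unusual in making keratins, which form the intermediate filaments of epithelia, together with mesenchymal proteins such as vimentin, and it arises in the embryo from the coelomic epithelium, where the transcription factor WT1 is active. Keratin filaments need a type II chain (KRT7 or KRT8) paired with a type I chain (KRT18 or KRT19), and these 4 are the keratins of simple, single-layered epithelia. Fibroblasts in culture are usually defined by vimentin and collagens and not by keratins.

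Each deposited value is the log2 signal of a probe set. Most probe sets that detect little sit in a narrow range at the bottom of the scale, called the low group, and a gene is called low here where its group mean was below 4. Of all genes, 39.3% were low in all 4 groups, each gene being represented by its probe set with the highest mean. A value inside the low group cannot be told apart from background, because no detection calls were used, and the size of a difference with a side there is uncertain. A low value may also come from a probe set that measures its transcript poorly. The arrays are of bulk RNA, in which fewer cells of a type and less RNA per cell cannot be told apart. Replicate arrays had correlations of 0.996 to 0.998 with each other, and YF with hormone replicate 1 stood apart on the second principal component (55.8, against -32.6 to 14.3 for the other 7 arrays). The brightest Stat5a probe set lay at 4.28 to 5.36 in EA cells and at 7.82 to 8.51 in YF cells, and the other 3 Stat5a and Stat5b probe sets were low in all, at 1.87 to 2.53. Which part of the transcript or construct these probe sets cover was not analysed, so they do not check the null background.

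The marker genes did not behave as 1 programme. Msln, Slurp1, Krt19 and Krt7 were higher in EA cells, Wt1 was present in YF cells and low in EA cells, and the other 5 genes were low on all 8 arrays. With the EA and YF arrays not overlapping and a mean difference of at least 1 taken as apart, 4 of the 10 genes were apart with EA higher and 1 with EA lower, where 7.72% of all genes were apart in either direction (3.70% with EA higher and 4.01% with EA lower). Because the genes were chosen with these levels known, nothing is read from that count. The median difference of the 10 genes, EA minus YF, was 0.21, and that of all genes was 0.02.

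**Figure D1:**
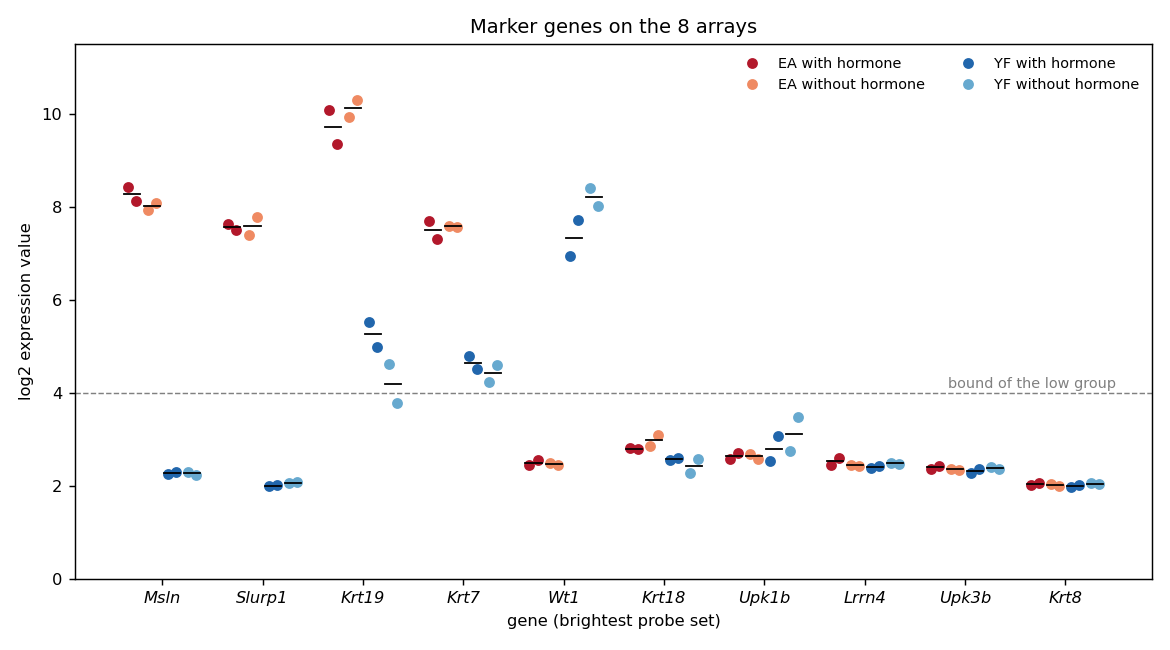
Log2 expression values of the brightest probe set of each marker gene (y axis) on the 8 arrays, with points for arrays, bars for the means of 2 arrays, and the bound of the low group dashed at 4. Msln, Slurp1, Krt19 and Krt7 are higher in both EA groups, Wt1 in both YF groups, and the 5 genes on the right stay under the bound.

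Msln encodes mesothelin, a glycoprotein anchored to the surface of mesothelial cells. It lay at 8.42 and 8.12 in EA cells with hormone and at 7.93 and 8.09 in EA cells without it, against 2.25 and 2.29 in YF cells with hormone and 2.29 and 2.24 in YF cells without it. All 4 EA arrays were thus well above the low group and all 4 YF arrays inside it. The mean difference over both treatments was 5.87, and its size is uncertain because the YF side is low.

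Slurp1 encodes a small secreted protein of the Ly6 family that keratinocytes make and that acts on nicotinic acetylcholine receptors. It showed the same division, at 7.62 and 7.51 in EA cells with hormone and 7.39 and 7.78 in EA cells without, against 1.99 and 2.02 in YF cells with hormone and 2.05 and 2.09 in YF cells without. The difference was 5.54, again with a low YF side. Msln and Slurp1 were among 133 genes that were above the bound in both EA groups and low in both YF groups.

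Krt19, the smallest of the type I keratins, was measured at 10.09 and 9.36 in EA cells with hormone and at 9.94 and 10.30 in EA cells without. In YF cells it was at 5.53 and 4.99 with hormone and at 4.61 and 3.77 without, so the YF arrays straddled the bound and none reached the EA range. The means were 9.73 ± 0.51 and 10.12 ± 0.26 in EA cells with and without hormone, against 5.26 ± 0.38 and 4.19 ± 0.59 in YF cells with and without hormone (SD, n = 2 each), a difference of 5.20 over both treatments.

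Krt7, a type II keratin of ducts and mesothelium, was above the bound on all 8 arrays. Its values were 7.69 and 7.30 in EA cells with hormone and 7.59 and 7.57 in EA cells without, against 4.78 and 4.51 in YF cells with hormone and 4.23 and 4.60 in YF cells without. The difference of 3.01, an 8.04-fold ratio, was the smallest of the 4 genes that were higher in EA cells, and Krt7 was the only one of them above the bound on every array.

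Wt1, the zinc finger factor of coelomic epithelium, kidney and gonad, ran the other way. It lay at 2.45 and 2.55 in EA cells with hormone and at 2.48 and 2.44 in EA cells without, against 6.94 and 7.71 in YF cells with hormone and 8.40 and 8.02 in YF cells without. The difference was -5.29, with a low EA side. Wt1 was among 178 genes that were low in both EA groups and above the bound in both YF groups. Wt1os, transcribed antisense to Wt1, stayed low on all arrays (2.51 and 2.66 in EA cells with hormone and 2.53 and 2.51 without, against 2.46 and 2.50 in YF cells with hormone and 2.57 and 2.53 without). Wt1 and Msln were thus above the bound in different cells.

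**Figure D2:**
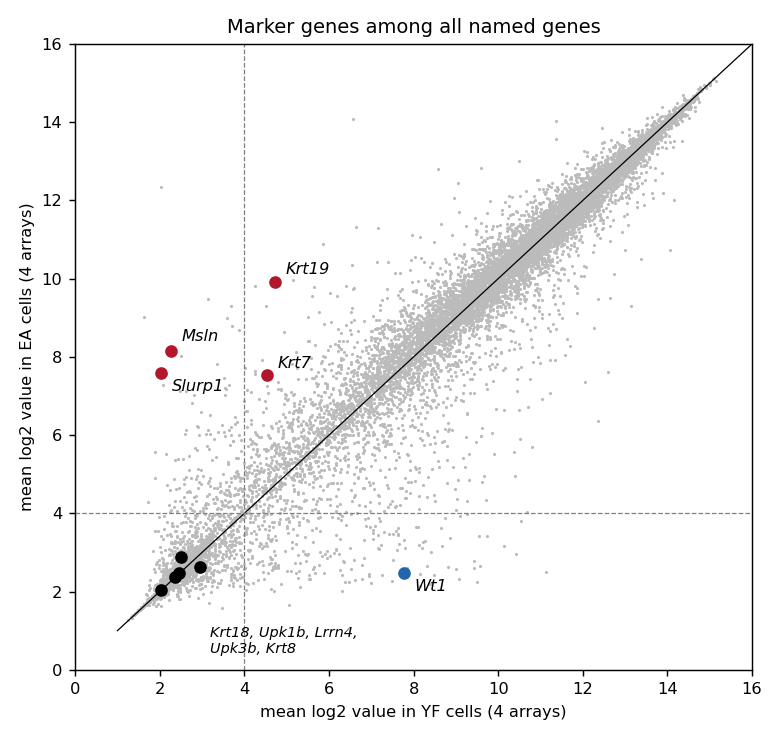
Mean log2 value in EA cells (y axis) against YF cells (x axis), 4 arrays each, for all named genes (grey) and the marker genes (coloured), with the bound of 4 dashed and the line of equal levels drawn. Msln and Slurp1 lie above the line with a low YF side, Krt19 and Krt7 above it with a YF mean just over the bound, Wt1 far below it, and the 5 low genes sit together near 2 to 3.

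The other type II and type I chains of simple epithelia, Krt8 and Krt18, were low. Krt8 was covered by 3 probe sets, and the brightest lay between 1.97 and 2.06 on all 8 arrays, with no separation of the groups. The other 2 probe sets were lower still. Krt18, its usual partner, lay at 2.81 and 2.79 in EA cells with hormone and 2.85 and 3.10 without, against 2.55 and 2.60 in YF cells with hormone and 2.28 and 2.57 without. The EA arrays of Krt18 were all above the YF arrays, by 0.39 on average, but every value was inside the low group. Krt8 has processed copies in the mouse genome, and some of its probe sets carry an Affymetrix suffix that marks possible cross-hybridization, so its values are uncertain in that respect. Among the other marker genes, the only Wt1 probe set and the brightest ones of Upk1b and Upk3b also carry a suffix of this kind.

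Krt7, Krt8 and Krt18 lie on chromosome 15, with Krt8 and Krt18 next to each other, and they had different levels in these cells. Their RefSeq promoters, 250 bases before to 50 after the start in GRCm38.p6, are shown because this chromosome holds both a keratin that was measured above the bound and the pair that was not. Capitals mark GGGCGG, an SP1-type motif, on either strand (overlaps allowed).
Krt7 (chr15:101412153-101412452, plus strand): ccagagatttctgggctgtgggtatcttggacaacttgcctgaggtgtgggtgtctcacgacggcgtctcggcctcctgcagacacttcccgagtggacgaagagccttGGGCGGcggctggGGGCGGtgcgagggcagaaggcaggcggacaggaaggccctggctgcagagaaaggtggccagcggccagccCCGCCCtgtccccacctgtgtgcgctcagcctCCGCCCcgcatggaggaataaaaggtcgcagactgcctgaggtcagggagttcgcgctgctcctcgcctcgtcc
Krt8 (chr15:102004293-102004592, minus strand): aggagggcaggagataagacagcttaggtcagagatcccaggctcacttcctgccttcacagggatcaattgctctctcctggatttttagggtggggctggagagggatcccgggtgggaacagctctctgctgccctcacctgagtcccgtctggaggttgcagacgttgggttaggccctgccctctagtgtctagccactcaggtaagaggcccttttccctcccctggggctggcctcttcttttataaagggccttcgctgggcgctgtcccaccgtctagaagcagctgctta
Krt18 (chr15:102027966-102028265, plus strand): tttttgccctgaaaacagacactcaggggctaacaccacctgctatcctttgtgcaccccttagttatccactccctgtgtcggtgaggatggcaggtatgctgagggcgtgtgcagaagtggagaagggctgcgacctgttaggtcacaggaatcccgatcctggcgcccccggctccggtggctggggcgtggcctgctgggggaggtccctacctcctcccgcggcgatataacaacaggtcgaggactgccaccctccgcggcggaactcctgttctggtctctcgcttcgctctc
The Krt7 window holds 4 such matches and the Krt8 and Krt18 windows hold 0, while 35.7% of the 32851 promoters in the table hold at least 1. Both strands were also searched for TTCNNNGAA, a STAT5-type motif present in 8.3% of all promoters, and for GCGGGGGCG, an EGR1- and WT1-type motif present in 2.91%. Neither was found in the 5 promoters that the table gives for the marker genes (Krt7, Krt8, Krt18, Upk3b and Lrrn4). A match is a description of letters, and nothing is drawn from it about a factor.

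The remaining 3 genes are closer to mesothelium and urothelium. Upk3b, a uroplakin expressed in mesothelium, was low on both of its probe sets, the brightest giving 2.36 and 2.43 in EA cells with hormone and 2.36 and 2.35 without, against 2.27 and 2.37 in YF cells with hormone and 2.40 and 2.36 without. Lrrn4, a leucine-rich repeat membrane protein found in mesothelium, gave 2.45 and 2.60 in EA cells with hormone and 2.45 and 2.43 without, against 2.39 and 2.43 in YF cells with hormone and 2.50 and 2.46 without. Neither gene separated the groups. Upk1b, a tetraspanin of urothelial plaques, was low on all 4 of its probe sets. Its brightest probe set gave 2.57 and 2.71 in EA cells with hormone and 2.68 and 2.58 without, against 2.53 and 3.06 in YF cells with hormone and 2.75 and 3.48 without, with overlap between the mutants. Over all 11 probe sets of these 5 low genes the values ran from 1.66 to 3.48. The label of a mesothelial or simple-epithelial group is therefore met by 5 of the 10 genes at most, in different cells, and the set is described here by its leading genes.

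None of the 10 genes passed the test for a response to growth hormone. In EA cells at 120 minutes, 0 of the 10 genes passed in limma at an adjusted p under 0.05, where 0.198% of all genes passed, and 0 had an unadjusted p under 0.05. The changes, with minus without hormone, lay between -0.39 for Krt19 and 0.26 for Msln, with a median of 0.02, the same as that of all genes. Msln was higher on both arrays with hormone than on both without, by 0.26 (SE 0.11, n = 2 each, limma adjusted p = 0.87, 95% interval -0.03 to 0.54). For Krt19 the arrays overlapped and the interval was wide (-1.40 to 0.61), while for Slurp1 it was -0.35 to 0.31 and for Krt7 -0.55 to 0.39. The fit shares 1 spread over all 4 groups. The SD of Msln was 0.21 and 0.12 in EA cells with and without hormone, against 0.03 and 0.04 in the low YF groups. That of Slurp1 was 0.08 and 0.28, against 0.02 and 0.03. The EA intervals of Msln and Slurp1 may therefore be too narrow. For 9 of the 10 genes the interval lay within 1 on either side of 0. Of these 9, only Msln, Slurp1 and Krt7 were above the bound in EA cells. The others (Krt8, Krt18, Upk1b, Upk3b, Lrrn4 and Wt1) were inside the low group there, where a change may not show, so their narrow intervals exclude no response. The counts of genes passing have the same limit, in YF cells also for Msln and Slurp1.

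In YF cells 0 of the 10 genes passed, where again 0.198% of all genes did, and 2 had an unadjusted p under 0.05, Krt19 and Wt1, compared with 14.1% of all genes. Krt19 was higher on both arrays with hormone, by 1.07 (SE 0.40, n = 2 each, limma adjusted p = 0.42, interval 0.06 to 2.07). Wt1 was lower on both, with a value of -0.88 (SE 0.27, limma adjusted p = 0.34, interval -1.56 to -0.21). The SE uses 1 spread shared by all 4 groups. The SD of Wt1 was 0.54 and 0.26 in YF cells with and without hormone, against 0.07 and 0.03 in the low EA groups. The Wt1 interval and its unadjusted p may therefore be too small for YF cells. The array that stood apart, YF with hormone replicate 1, held both the highest Krt19 value (5.53) and the lowest Wt1 value (6.94) of the YF arrays. Without it the differences were 0.80 for Krt19 (limma adjusted p = 0.95) and -0.50 for Wt1 (adjusted p = 0.59). Without its partner they were 1.34 (adjusted p = 0.24) and -1.27 (adjusted p = 0.057). The median change of the 10 genes was -0.05 and that of all genes -0.04.

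**Figure D3:**
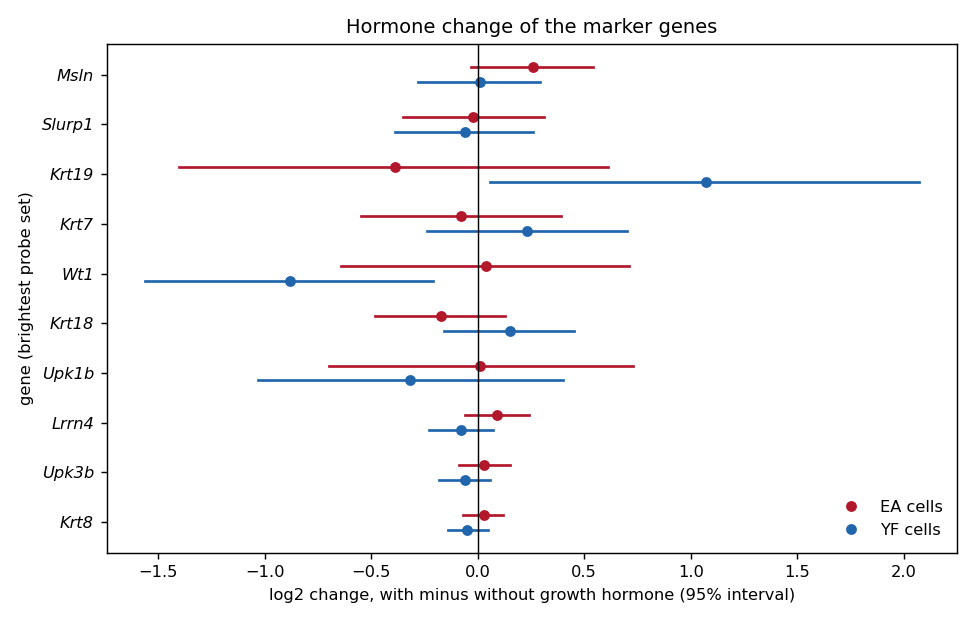
Log2 change with minus without growth hormone (x axis) for the brightest probe set of each marker gene, in EA cells and YF cells, with points for the limma estimate and lines for its 95% interval. All EA intervals include 0, and in YF cells those of Krt19 and Wt1 do not before adjustment.

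For a difference in response between the mutants, 0 of the 10 genes passed in limma, where 0.0220% of all genes did, and 1, Krt19, had an unadjusted p under 0.05 (11% of all genes). The Krt19 difference, the EA response minus the YF response, was -1.46 (SE 0.56, adjusted p = 0.45, interval -2.88 to -0.04), and the Wt1 difference was 0.92 (SE 0.38, adjusted p = 0.45, interval -0.04 to 1.88). Averaged over the mutants, hormone gave values between -0.42 for Wt1 and 0.34 for Krt19, and 0 of the 10 genes passed in limma or had an unadjusted p under 0.05, where 0.319% of all genes passed. The intervals of Msln (-0.07 to 0.33), Slurp1 (-0.27 to 0.19) and Krt7 (-0.26 to 0.41) on this average lay within 1 on either side of 0. For Msln and Slurp1 the YF arrays were inside the low group, where a change may not show. Those arrays pull the average towards 0 and narrow the shared spread, so the average excludes no change for these genes.

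Other genes of the same tissues were then set beside the 10. For these, EA against YF, averaged over treatments, was tested in limma over all probe sets, although the lists too were chosen with earlier results of these data known, so the counts are a description and no independent support. In that test, 12.3% of all genes passed with EA higher and 10.5% with EA lower. Of 12 other mesothelial genes, 0 passed higher in EA and 4 lower, and 8 were low in all groups, Gpm6a, Muc16, Calb2, Aldh1a2 and Cldn15 among them. Another 3 were above the bound in all groups. The highest group means in the list were 13.62 and 13.60 in EA cells with and without hormone. In YF cells they were 13.43 and 13.54 with and without hormone. Ptgis, prostacyclin synthase, averaged 5.01 and 5.35 in EA cells with and without hormone, against 8.78 and 9.10 in YF cells with and without hormone. EA minus YF was -3.76 (SE 0.35, limma adjusted p = 0.0021). Efemp1, a fibulin of the matrix, was lower in EA (-2.27, SE 0.19, adjusted p = 0.0015), and so was Rspo1, a Wnt agonist (-1.26, adjusted p = 0.0019, with a low EA side). Podxl, the sialomucin podocalyxin, was low in every group, at 2.09 and 2.07 in EA cells with and without hormone and 3.14 and 2.10 in YF cells with and without hormone. It passed against YF (-0.54, adjusted p = 0.0039) and for hormone in YF cells (1.04, adjusted p = 0.042), and its second probe set, also low, gave 0.02 for EA against YF. The hormone call of Podxl was lost without any 1 of the 6 arrays outside YF with hormone (adjusted p of 0.12 to 0.17).

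Of 11 regulators of coelomic epithelium and epicardium, 1 passed higher in EA, Tbx18, and 1 lower, Tbx20. Tbx18, a T-box factor of the epicardium, was higher by 1.95 (SE 0.12, adjusted p = 0.00071), with both mutants far above the bound and its second probe set at 2.55. Tbx20, a cardiac T-box factor, gave -3.12 (SE 0.22, adjusted p = 0.001) with a low EA side, while its other 2 probe sets were low and near 0. Like Wt1, Tbx20 was above the bound in YF cells alone. Tcf21, Gata4, Isl1 and Nr5a1 were low in all groups, while 6 of the 11 were above the bound in all groups. Of 7 reported WT1 target genes, 0 passed higher and 2 lower, Spry1 (-1.44, adjusted p = 0.011, with a low EA side) and Podxl, which is also among the mesothelial genes, and 5 were low in all groups.

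Other keratins and genes of epithelial adhesion and tight junctions were mostly low. Of 14 other keratins, 11 were low in all groups, 2 passed higher in EA and 1 lower. Krt80, the neighbour of Krt7, was above the bound in all groups and gave 1.16 (SE 0.18, adjusted p = 0.011). Krt17, a keratin of basal and wounded epidermis, gave 1.40 (adjusted p = 0.0069) inside the low group, and Krt20, a keratin of intestine and urothelium, -1.57 (adjusted p = 0.01) with a low EA side. Of 13 genes of epithelial adhesion and tight junctions 0 passed in limma in either direction, and 11 were low in all groups, among them Cdh1 (E-cadherin) and Epcam. The other 2 were above the bound in all groups. Among 10 relatives of the marker genes, Ly6e passed higher (0.45, adjusted p = 0.006) and Lrrn3 lower (-0.69, adjusted p = 0.027), and the uroplakins Upk1a, Upk2 and Upk3a were low. The Lrrn3 call did not hold without some single arrays (adjusted p of 0.013 to 0.095).

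Of 11 desmosome genes, 3 passed higher in EA (Ppl, Dsp and Pkp1) and 4 lower (Dsc2, Perp, Pkp2 and Jup). Of the 11, 6 were above the bound in all groups and 4 were low in all groups. Ppl, the cytolinker periplakin, had means of 11.19 and 11.38 in EA cells with and without hormone, against 6.94 and 7.37 in YF cells with and without hormone. EA minus YF was 4.13 (SE 0.07, adjusted p = 1.5e-05). Dsp, desmoplakin, was higher by 1.53 (SE 0.11, adjusted p = 0.00099), while Dsc2, a desmocollin, gave -2.67 (SE 0.20, adjusted p = 0.0012) and Perp -0.95 (SE 0.02, adjusted p = 3.6e-05). Leaving out single arrays gave 2 to 3 higher and 2 to 4 lower. Of 12 epithelial regulators 2 passed higher and 1 lower, with 7 low in all groups and 4 above the bound in all groups. Trp63, the p53 relative of stratified epithelium, gave 2.74 (SE 0.17, adjusted p = 0.00061, with a low YF side and 3 further probe sets low and near 0). Foxa1, an endodermal factor, gave -1.81 (adjusted p = 0.00079), and Esrp2, a splicing factor, 0.12, a call lost without any 1 array (adjusted p of 0.055 to 0.14). Of 6 mesenchymal regulators, all above the bound in all groups, Snai1 was lower in EA (-1.60, adjusted p = 0.0048), and Snai2 (0.36, adjusted p = 0.0059) and Twist2 (0.47, adjusted p = 0.017) were higher, Twist2 losing its call without EA replicate 2 (adjusted p = 0.059) or YF replicate 1 (adjusted p = 0.056).

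**Figure D4:**
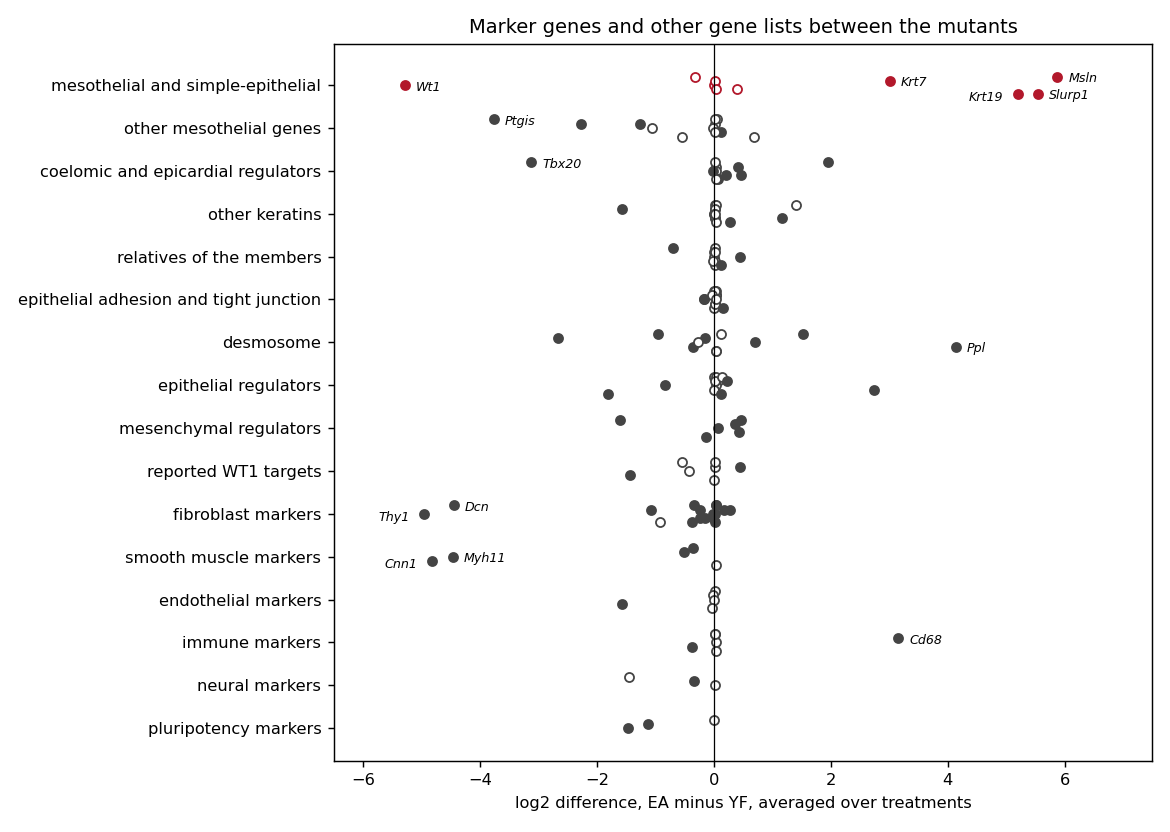
Log2 difference, EA minus YF, averaged over treatments (x axis) for the marker genes (red) and the genes of the other lists (grey), 1 point per gene by its brightest probe set, open where the gene is low in all 4 groups, and named where the difference is at least 3 in size. Msln, Slurp1, Krt19 and Krt7 lie to the right with Ppl and Cd68, and Wt1 to the left with Thy1, Cnn1, Dcn and Myh11.

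The labelled cell type was checked by its markers. Of 17 fibroblast genes 15 were above the bound in all groups, with Vim and Col1a1 among the highest values of the arrays in both mutants. Mesothelium makes vimentin too, so Vim does not tell it from fibroblasts. The keratin signal in EA cells was measured beside most of these genes, but Thy1 and Dcn, below, were lower there than in YF cells. The list does not settle the cell type. In EA, 1 of the 17 was higher (Postn, a matrix protein) and 7 lower (0 to 1 higher and 3 to 6 lower without single arrays). Thy1, a fibroblast surface protein, had means of 7.60 and 7.64 in EA cells with and without hormone, against 12.49 and 12.68 in YF cells with and without hormone (-4.96, SE 0.09, adjusted p = 1.8e-05). Dcn, the proteoglycan decorin, was low in EA cells at 2.92 and 3.74 with and without hormone, against 8.15 and 7.41 in YF cells with and without hormone (-4.45, adjusted p = 0.00026). Cdh2, N-cadherin, gave -0.38 (adjusted p = 0.0047), and Lum -0.92 inside the low group, lost without some single arrays (adjusted p of 0.0059 to 0.099). The summed log2 level of the list was 195.5 to 197.9 over the EA arrays and 208.3 to 210.1 over the YF arrays. Thy1 and Dcn make up much of that gap, and the median difference of the 17 genes was -0.15.

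Markers of other cell types also differed between the mutants, and their part in the levels of the 10 genes was not tested. Of 5 smooth muscle genes 3 were lower in EA, with Cnn1, calponin, at -4.82 (adjusted p = 0.00017), Myh11, smooth muscle myosin, at -4.47 (adjusted p = 7.1e-05, with a low EA side) and Acta2, smooth muscle actin, at -0.36 (adjusted p = 0.0092). The brightest Acta2 probe set lay near the top of the scale, and of its other 2, the one with a mean of 6.14 gave -3.52 (adjusted p = 8.5e-05) and the low one -0.23 (adjusted p = 0.095). The summed level of the 5 smooth muscle genes was 36.9 to 38.0 over the EA arrays and 46.8 to 48.1 over the YF arrays. That gap came mostly from Cnn1 and Myh11, and the median difference of the 5 genes was -0.52. Of 6 immune genes only Cd68, a lysosomal protein, passed (3.15, adjusted p = 0.00026, higher in EA). Ptprc, Cd3e, Cd79a and Adgre1 were low in all groups. Csf1r, the remaining gene, was above the bound in all groups, at 8.97 and 8.40 in YF cells with and without hormone, and did not pass. The sums were 28.3 to 29.0 in EA and 25.1 to 26.5 in YF, while the median difference of the 6 immune genes was 0.03. Of 5 endothelial genes Tek was lower in EA (-1.58, adjusted p = 0.0026) and Pecam1, Cdh5, Kdr and Emcn were low in all groups, with sums of 16.6 to 17.2 in EA and 18.0 to 18.8 in YF. Of 3 neural genes Tubb3 was lower in EA (-1.45, adjusted p = 0.0042, inside the low group) with Sox10 low, at sums of 16.1 to 16.5 in EA and 17.2 to 19.3 in YF. Of 3 pluripotency genes Sox2 (-1.47, adjusted p = 0.002) and Nanog (-1.12, adjusted p = 0.031, with a low EA side, lost without some single arrays at up to 0.1) were lower and Pou5f1 was low, at sums of 10.6 to 11.8 in EA and 13.4 to 14.4 in YF.

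Genes with the most similar pattern were sought among 10774 other genes with a mean of at least 4, by the root mean square difference over the 8 arrays between a gene's values, centred on their mean, and the median centred profile of Msln, Slurp1, Krt19, Krt7 and Wt1. As 4 of these 5 are higher in EA, the profile is theirs, and the marker nearest to it was Krt19 (0.30), followed by Slurp1 (0.46), Msln (0.59) and Krt7 (1.01), with Wt1 far away (5.17). The nearest other genes were Slc22a18 (0.20), an organic cation transporter, Il11 (0.23), a cytokine of the IL-6 family, Thbs4 (0.32), a thrombospondin, Adam8 (0.34), a membrane protease, and Plch2 (0.35), a phospholipase C. Slc22a18 had means of 9.21 and 9.40 in EA cells with and without hormone, against 4.84 and 4.17 in YF cells with and without hormone. Il11 had means of 8.56 and 9.02 in EA cells with and without hormone, against 4.03 and 3.41 in YF cells with and without hormone. These genes were picked for their likeness, so no test is given.

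**Figure D5:**
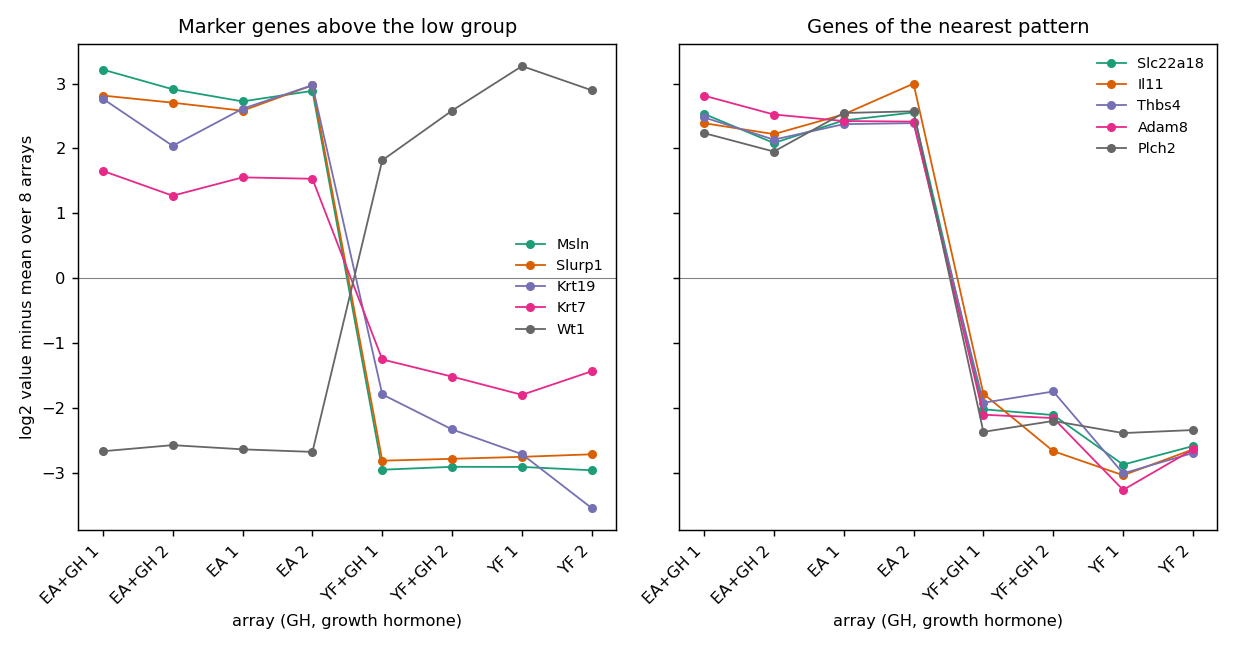
Log2 value minus the gene's mean over the 8 arrays (y axis) for the 5 marker genes above the low group (left) and the 5 nearest other genes (right), with arrays on the x axis (GH, growth hormone). Msln, Slurp1, Krt19 and Krt7 drop between the EA and YF arrays as the 5 nearest genes do, and Wt1 rises.

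Genes next to the markers were also set beside them. Of the 10 genes 4 lie on chromosome 15 (Krt7, Krt8, Krt18 and Slurp1), and Wt1 and Lrrn4 lie on chromosome 2. The 2 nearest measured protein-coding genes on each side of each marker gene, a rule set after the marker values had been seen, made 36 genes, of which 4 (11.1%) were apart between the mutants by the rule above, against 7.72% of all genes. They were Krt80 beside Krt7, Tns2 near Krt18, B4galt4 beside Upk1b and Bmp2 beside Lrrn4. The 4 genes around Krt19 (Krt13, Krt14, Krt15 and Krt16) were low in all groups. Beside Slurp1, Lypd2, Them6 and Psca were low in all groups and Lynx1 had a difference of 0.13. Around Msln the differences were 0.59 for Rpusd1, -0.71 for Chtf18, 0.32 for Ciao3 and 0.16 for Haghl, and around Wt1 they lay between -0.28 for Ccdc73 and 0.09 for Eif3m, so none of these 8 genes was apart.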

How the data were processed

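Per the labels' protocols, TRIzol RNA was made into biotinylated cRNA for the arrays. The authors deposited log2 expression values per probe set, 1 column per array, and the submitters' processing notes name GCOS and RMA without versions or order; the genome build is not given in the sources used here. Array medians were 2.85 to 2.94, so no further normalization was applied. Of 45101 probe sets, 64 controls were left out, and 34945 of the other 45037 carried 1 symbol in the platform annotation, 932 several and 9160 none. RefSeq (GRCm38.p6) matched 34741 of the 1-symbol probe sets by gene ID and changed 0 symbols.

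All 8 arrays entered a limma fit with a mean per group (limma 3.58.1, R 4.3.3, lmFit and eBayes, 4 residual and 1.26 prior degrees of freedom), two-sided, with Benjamini-Hochberg adjustment over 45037 probe sets and a threshold of 0.05. Log2 differences are the first-named side minus the second. The code was tested on simulated data. The number of arrays limits the precision. Members, gene lists and tests were chosen with earlier results of these data known. The text names all 10 marker genes, up to 4 genes of each other list by size of a passing change, any passing a hormone contrast, and the 5 nearest in pattern; low genes of a list, neighbours and remaining passing genes named beside a count were chosen after their values were seen. Alternatives were quantile normalization, centring, a filter on low values, another prior, averaging probe sets, fits within a mutant, a replicate block and leaving out each array.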

Additional observations from a re-analysis of the deposited data

How the results depend on the processing

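Whether a marker gene passed did not depend on the settings tried, while the size of some hormone changes did. In each of the alternatives that could be run, 0 of them passed in limma in any of the 4 hormone comparisons, and 5 were apart between EA and YF, also at a difference of at least 2. None of their 115 recomputed level differences moved by as much as the SD between replicates, and in YF cells the Krt19 change ran from 0.65 to 1.49 (limma adjusted p of 0.076 to 0.95) and the Wt1 change from -1.27 to -0.50 (adjusted p of 0.057 to 0.71). The count of 5 genes apart could hardly move under these alternatives. Leaving out an array cannot make the mutants overlap. Each of the 5 has 1 probe set, so averaging changes nothing, and the filter on low values alters no value. Quantile normalization and centring do alter values, and both gave 5. As the genes were chosen with these levels known, neither this count nor the level differences are independent support. The count of probe sets passing over the whole array did vary. Hormone in EA cells gave 61, with 9 to 80 when single arrays were left out, 37 after quantile normalization, 15 with the replicate block, 106 with a trend and robust prior, 39 genes when probe sets were averaged and 4 in the EA arrays alone. Hormone in YF cells gave 81, with 8 to 675 without single arrays, the highest without YF with hormone replicate 2, 53 after quantile normalization, 21 with the block, 187 with the other prior, 23 averaged and 1 in the YF arrays alone. The difference of responses gave 9, with 0 to 201 without single arrays, 0 with the filter, 0 with the block, 42 with the other prior and 4 averaged. Averaged over mutants hormone gave 95, with 27 to 373 without single arrays, 37 with the block, 157 with the other prior and 51 averaged. EA against YF gave 4847 without hormone (2488 to 5170 without single arrays), 4579 with hormone (2372 to 4939, and 2996 averaged) and 7451 over both (5470 to 7763, and 4724 averaged). Fewer features are tested where probe sets are averaged or filtered, and the cause of the other shifts was not tested. Averaging probe sets turned the direction of Esrp2 (-0.08) and Fn1 (0.28), and moved other EA minus YF values by over 1.5 times: Acta2 to -1.37, Dcn to -2.22, Myh11 to -2.24, Dsc2 to -1.41, Tbx20 to -1.04, Trp63 to 0.71, Krt17 to 0.72, Ly6e to 0.24, Snai2 to 0.56, Podxl to -0.26 and Plch2 to 2.33, all keeping direction and call, and Col1a1 to -0.13, which lost its call.

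The numbers 1 and 2 of the labels do not pair the arrays by any stated litter or day, and the replicate differences of the 6 pairs of groups had correlations of both signs, at -0.213 for the EA groups, 0.12 for the YF groups, 0.367 for both groups with hormone, -0.062 for both without, -0.303 for EA without and YF with hormone, and 0.002 for EA with and YF without hormone. A block with the EA numbers crossed, added after seeing the data, gave 131 calls for hormone in YF cells and 2 for the difference of responses. With either replicate block 0 of the 10 marker genes passed. No detection calls were used, so levels inside the low group, where 5 of the 10 genes lie, cannot be resolved.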

Other observations

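Bmp2, a bone morphogenetic protein whose gene lies beside Lrrn4, was at 3.76 and 4.20 in EA cells with and without hormone, against 9.47 and 9.04 in YF cells with and without hormone, a difference of -5.28 chosen after its values were seen. Lrrn4 itself was low on all arrays. Lrrn4cl, a gene with a name like that of Lrrn4, stood at 3.93 and 3.14 in EA cells with hormone and 4.40 and 3.57 without, against 4.04 and 3.31 in YF cells with hormone and 2.98 and 2.92 without. By its group means Lrrn4cl was low in all 4 groups, the highest being 3.99 in EA cells without hormone.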
